A study of Mus musculus with 22 samples.

Results

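The experiment described here compares embryonic mouse heart ventricles in which Lin9 was deleted with control ventricles, in the more deeply sequenced of 2 RNA-seq experiments of the series. Its members are 6 of the 22 samples, 3 libraries labelled LIN9 KO and 3 labelled LIN9 wt, which fill the first of the 2 count tables. The second experiment (12 libraries) crossed the same Lin9 genotypes with a deletion of Sav1, and 4 ChIP-seq samples were not used here. The study asked how cell cycle genes in heart muscle depend on the MuvB complex and on the Hippo pathway.

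All 6 libraries came from polyA-selected RNA of ventricles taken at E13.5 from mice kept on a C57/Bl6 background, with Sav1 intact and with Nkx2.5-Cre, which drives recombination in cardiac precursor cells. The knockouts were Lin9 fl/fl, with loxP sites on either side of exon 7 of Lin9. For the controls the labels give wild-type Lin9, whereas the publication lists Lin9 fl/+, so they may carry 1 recombined allele together with Cre. Ventricles also hold cells outside the Nkx2.5 lineage, in which Lin9 stays intact. Genes of blood cells and macrophages were counted too, and whether Lin9 is intact in those cells was not measured here. Whether a library holds 1 embryo or several is not given in the sources used here, and p-values measure the spread between these libraries. For this comparison a figure legend of the publication speaks of biological replicates that were each done in triplicate. The legend does not say whether each RNA-seq experiment is 1 such replicate, with the libraries of a group as its triplicate. How far the libraries of a group are independent is therefore not known.

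LIN9 is a core subunit of MuvB, a complex that binds CHR elements near the start sites of cell cycle genes. With the pocket proteins p107 or p130, E2F4 and DP it forms DREAM, which holds those genes down in resting cells, and with B-MYB and FOXM1 it activates them late in the cell cycle, when kinases, kinesins and centromere proteins for mitosis are made. Embryonic ventricle grows mainly by division of cardiomyocytes, which at the same time build sarcomeres and mitochondria.

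Each library held between 9485599 and 9615274 counts, so 1 count stood for 0.103 to 0.108 CPM. CPM are counts scaled to a common library size with TMM factors, which adjust each total for the genes that dominate it. On the first principal component of log2 CPM (50.6% of the variance) the genotypes lay on opposite sides. LIN9 KO replicate 3 stood apart from the other libraries of its group on the second (15.9%). Haemoglobin genes took 1.11%, 0.785% and 0.925% of all counts in the LIN9 wt libraries and 8.64%, 4.61% and 3.52% in the LIN9 KO libraries, most in LIN9 KO replicate 1. Y-linked genes were counted in every library, with a sum of 143, 101 and 77.9 CPM in LIN9 wt and 120, 130 and 110 CPM in LIN9 KO libraries. Xist was listed at 0 throughout, so the share of female tissue in a library cannot be read from it.

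**Figure D1:**
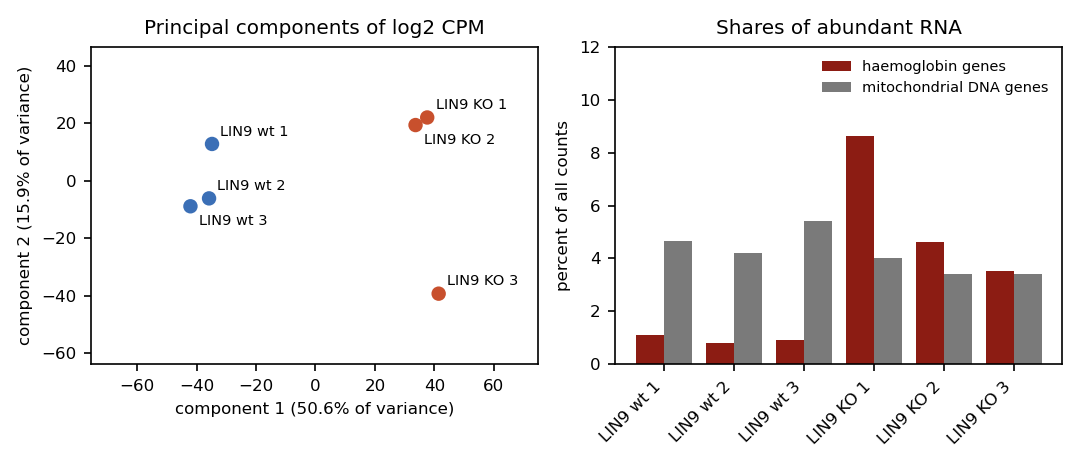
Left, the 6 libraries on the first 2 principal components of log2 CPM, LIN9 wt in blue and LIN9 KO in orange. Right, bars give the percent of all counts on haemoglobin genes (red) and on genes of mitochondrial DNA (grey) in each library; the haemoglobin share is 8.64% in LIN9 KO replicate 1 and at most 1.11% in the LIN9 wt libraries.

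Levels below are given for LIN9 wt replicates 1, 2 and 3 and then for LIN9 KO replicates 1, 2 and 3. Lin9 itself (ENSMUSG00000058729, chr1:180641150-180690694 of GRCm38) was counted at 29.8, 21.4 and 25.6 CPM in LIN9 wt and 21.4, 21.3 and 19.2 CPM in LIN9 KO libraries. The LIN9 KO libraries lay below the LIN9 wt libraries, though LIN9 wt replicate 2 and LIN9 KO replicate 1 were nearly equal. This difference did not pass edgeR's test with Benjamini-Hochberg adjustment over all genes (log2 fold change -0.31, SE 0.14, adjusted p = 0.13), the test behind every adjusted p below. The counts cover the whole gene, of which only exon 7 is removed, and cells without Cre keep it, so the level is a partial check of the genotype. Sav1, the Hippo scaffold that is intact in both groups, was at 54.3, 51.5 and 55.3 CPM in LIN9 wt and 52, 49.9 and 43 CPM in LIN9 KO libraries (log2 fold change -0.15, adjusted p = 0.353), and its groups overlapped.

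Across the transcriptome, 4131 of 19752 tested genes (20.9%) passed edgeR's quasi-likelihood test at a Benjamini-Hochberg adjusted p under 0.05. Of these, 2199 were higher in LIN9 KO (11.1% of the tested genes) and 1932 lower (9.78%); the median log2 fold change of all tested genes was 0.02. The groups did not overlap for 4078 of the called genes and for 7219 of all tested genes (36.5%). The shares of each list called lower and higher below are to be read against 9.78% and 11.1%. A log2 fold change of at least 1 in size was reached by 826 of the higher and 315 of the lower genes. Without LIN9 wt replicate 3, the calls numbered 2722, of which 1249 were lower. In bulk tissue, fewer cells of a type and less RNA per cell cannot be told apart, which holds for every group of genes below.

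The 10 largest decreases are given among called genes with a mean of at least 5 CPM and no overlap between groups. Ky, which encodes a protease-like protein of the Z-disc, was at 12.8, 11.2 and 12.7 CPM in LIN9 wt and 0.651, 0.944 and 1.03 CPM in LIN9 KO libraries. It was almost lost in all 3 knockouts and had the largest log2 decrease of these (log2 fold change -3.78, SE 0.24, adjusted p = 1.65e-07). Ckm, the cytosolic creatine kinase of muscle, fell from 96.1, 77.3 and 147 CPM to 21.6, 22.5 and 17.9 CPM (log2 fold change -2.37, adjusted p = 0.000386). Mb, the oxygen store myoglobin, fell from 373, 329 and 597 CPM to 93.7, 85.7 and 137 CPM (log2 fold change -2.04, adjusted p = 0.00241). In the annotation, 31.9% of the exonic length of Mb lies under another gene. LIN9 wt replicate 3 was the highest library for both. The other 7 were Cacng6, a calcium channel gamma subunit (log2 fold change -2.40), Kcnd2, a voltage-gated potassium channel (-2.07), Myh7b, a slow myosin heavy chain (-1.90), Macrod1, an ADP-ribose hydrolase of mitochondria (-2.35), Efnb3, an ephrin ligand (-1.84), Slc26a10, of an anion transporter family (-2.54), and Gm13111 (-2.53).

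Among the largest increases, Sost, which encodes the Wnt antagonist sclerostin, was at 4.12, 5.38 and 4.78 CPM in LIN9 wt and 49.6, 68.6 and 56.1 CPM in LIN9 KO libraries. Every knockout library lay far above every control, and the knockouts were close to each other (log2 fold change 3.61, SE 0.16, adjusted p = 4.90e-09). Gdf15, a stress-induced ligand of the TGF-beta family, rose from 1.85, 1.58 and 1.04 CPM to 13.1, 14.3 and 14.7 CPM (log2 fold change 3.22, adjusted p = 3.29e-07). Hsd3b6, a steroid dehydrogenase, was at 13, 11.5 and 7.38 CPM in LIN9 wt and 163, 107 and 72.5 CPM in LIN9 KO libraries, and Lmx1a, a LIM homeobox factor, at 1.55, 1.16 and 1.25 CPM in LIN9 wt and 19.3, 9.96 and 4.83 CPM in LIN9 KO libraries. Both were highest in LIN9 KO replicate 1, as were the haemoglobin genes, and both passed the test (adjusted p = 0.00271 and 0.013). The call of Lmx1a was lost without LIN9 wt replicate 3 or LIN9 KO replicate 2, and with no filter on low counts (adjusted p 0.0738, 0.057 and 0.0525). By the same rule as for the decreases, the other 6 of the 10 largest log2 increases were erythroid genes. These were Hbq1b, Hbb-bh1, Rhag, Ermap, Hba-x and Hbb-y. Rhag and Hbb-bh1 lost the call without LIN9 KO replicate 2 (adjusted p 0.0604 and 0.0572), and Ermap without any of LIN9 wt replicates 1, 2 and 3 or LIN9 KO replicate 2 (0.074, 0.0717, 0.112 and 0.11) and with no filter (0.0511).

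**Figure D2:**
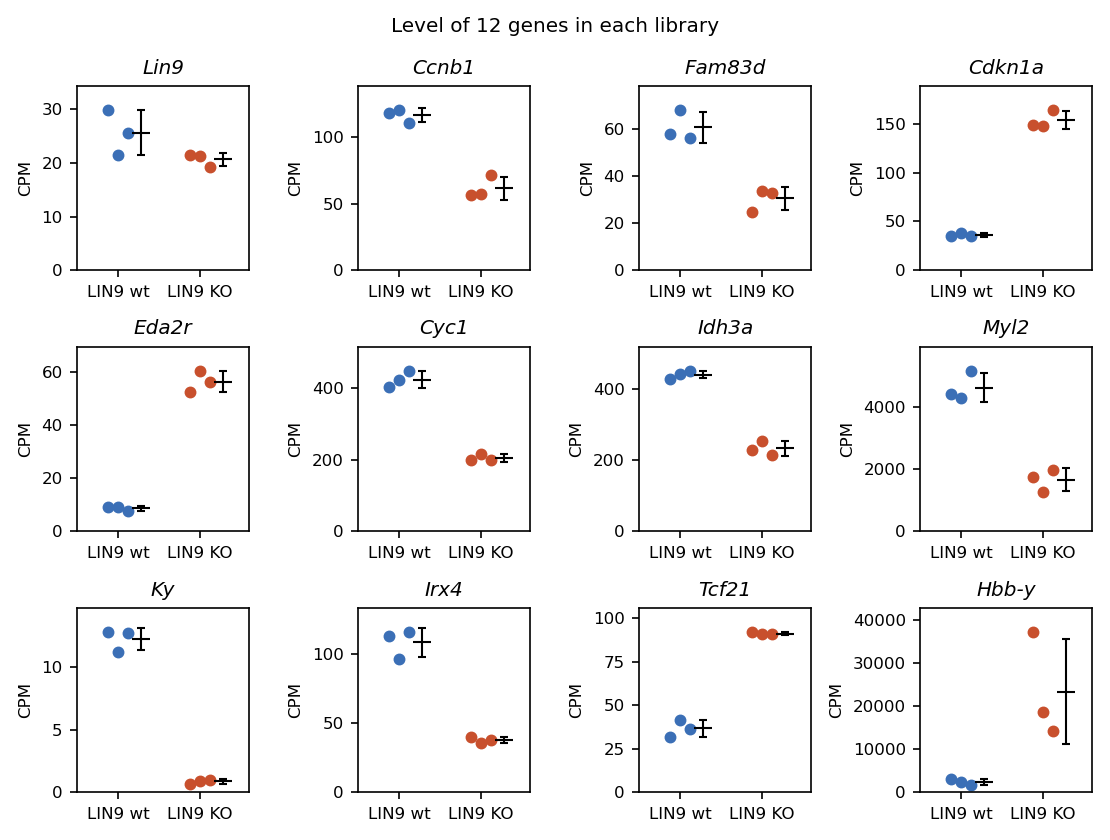
CPM of 12 genes in each library, 3 LIN9 wt (blue) and 3 LIN9 KO (orange), with the mean and SD of each group in black. Lin9 is at 29.8, 21.4 and 25.6 CPM in the controls and 21.4, 21.3 and 19.2 CPM in the knockouts, and for the other 11 genes the groups lie well apart.

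Genes of the complex that LIN9 belongs to showed small differences. Of 14 tested genes for MuvB, B-MYB and DREAM partners, 2 were called lower and 0 higher (median log2 fold change -0.01), or 14.3% lower against 9.78% of all tested genes. The lower genes were Foxm1 and Rbl1. Foxm1, a forkhead activator of mitotic genes, was at 74.8, 84.6 and 80.7 CPM in LIN9 wt and 65.5, 67 and 63 CPM in LIN9 KO libraries (log2 fold change -0.30, adjusted p = 0.041). Rbl1, which encodes the pocket protein p107, was at 71, 74.6 and 60.9 CPM in LIN9 wt and 51.9, 60.4 and 46.5 CPM in LIN9 KO libraries (log2 fold change -0.38, adjusted p = 0.0324). For both genes the knockouts lay below the controls by a small margin. These calls were not stable: the list had 0 lower genes without LIN9 wt replicate 1, LIN9 wt replicate 2 or LIN9 KO replicate 1, and 1 without LIN9 wt replicate 3, LIN9 KO replicate 2 or LIN9 KO replicate 3. Without LIN9 KO replicate 3 neither Foxm1 nor Rbl1 was called (adjusted p 0.0616 and 0.0703), and the 1 lower gene was Rbbp4 (0.0225). DESeq2 and upper quartile scaling also left 1, with Foxm1 not called (adjusted p 0.0716 and 0.0502). Tfdp2, a DP partner of E2F factors, was not called (log2 fold change 0.30, adjusted p = 0.0534) but was higher with upper quartile scaling, no filter on low counts or a mean count above 10 (0.0463, 0.0431 and 0.0441). With all libraries Rbbp4, the histone-binding subunit with the highest level in the list, was at 204, 227 and 222 CPM in LIN9 wt and 176, 167 and 194 CPM in LIN9 KO libraries and not called (log2 fold change -0.28, adjusted p = 0.0713).

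Late cell cycle genes were lower in part. Of 26 tested mitotic kinases, cyclins and anaphase regulators, 15 were lower and 1 higher (57.7% lower, against 9.78% of all tested genes), with a median log2 fold change of -0.36. Ccnb1, the cyclin that drives entry into mitosis, was at 119, 121 and 111 CPM in LIN9 wt and 56.4, 57.3 and 71.6 CPM in LIN9 KO libraries (log2 fold change -0.92, SE 0.11, adjusted p = 4.28e-05). Ccna2, the cyclin of S phase and G2, was at 210, 245 and 209 CPM in LIN9 wt and 117, 129 and 131 CPM in LIN9 KO libraries (log2 fold change -0.82, SE 0.11, adjusted p = 8.45e-05). Plk1, a kinase of spindle assembly, was at 60.2, 71.7 and 54.6 CPM in LIN9 wt and 36.6, 40.8 and 35.5 CPM in LIN9 KO libraries (log2 fold change -0.72, SE 0.12, adjusted p = 0.000453). In all 3 the knockouts lay below the controls without overlap. Cdk1, the kinase that Ccnb1 activates and the most abundant gene of the list, was at 200, 209 and 213 CPM in LIN9 wt and 167, 155 and 211 CPM in LIN9 KO libraries (log2 fold change -0.22, adjusted p = 0.228), and LIN9 KO replicate 3 was within the control range. Without that library Cdk1 was called lower (adjusted p 0.015). Wee1 and Haspin held 0 counts in all 6 libraries and were not tested.

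Mitotic kinesins and spindle proteins were lower for 7 of 22 tested genes and higher for 0 (31.8% lower, against 9.78% of all tested genes; median -0.20). Fam83d, which brings casein kinase to the spindle, was at 57.9, 68 and 56 CPM in LIN9 wt and 24.8, 33.9 and 33 CPM in LIN9 KO libraries (log2 fold change -0.99, adjusted p = 8.08e-05). All 3 knockouts lay well below all controls. Kpna2, an importin that handles spindle cargo, fell from 89.9, 84.3 and 93.7 CPM to 59.6, 51.5 and 55.4 CPM (log2 fold change -0.69, adjusted p = 0.000208). Racgap1, part of the centralspindlin complex, fell from 141, 175 and 139 CPM to 91.6, 109 and 103 CPM (log2 fold change -0.58, adjusted p = 0.00205). Numa1, a spindle pole protein and the most abundant of the list, was at 194, 203 and 174 CPM in LIN9 wt and 184, 206 and 183 CPM in LIN9 KO libraries, with overlapping groups.

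Kinetochore and spindle checkpoint genes numbered 31, of which 5 were lower and 2 higher (16.1% and 6.45%, against 9.78% and 11.1% of all tested genes), with a median of -0.01. The lower ones included Knstrn, a kinastrin of spindle attachment (109, 118 and 107 CPM against 59.2, 56.9 and 62.6 CPM, log2 fold change -0.90, adjusted p = 1.64e-05), Cenpm (25.2, 29.7 and 27.2 against 16.4, 14.2 and 14.4 CPM) and Cenpa, the histone H3 variant of centromeres (174, 181 and 168 against 96.6, 103 and 122 CPM). Each of these had no overlap between the genotypes. Hjurp, the chaperone that loads CENP-A, was at 410, 400 and 376 CPM in LIN9 wt and 427, 472 and 492 CPM in LIN9 KO libraries, so that its knockouts were above its controls, though not past the test (log2 fold change 0.23, adjusted p = 0.167). In the cytokinesis list 4 of 14 genes were lower and 2 higher (28.6% lower and 14.3% higher, against 9.78% and 11.1% of all tested genes; median -0.16). Kif23, the kinesin of the midbody, fell from 122, 100.03 and 95.7 CPM to 72.4, 80.8 and 55.4 CPM (log2 fold change -0.61, adjusted p = 0.00622). Sept7, a septin, was the most abundant member at 260, 205 and 258 CPM in LIN9 wt and 313, 310 and 246 CPM in LIN9 KO libraries, with overlapping groups. It was called higher only without LIN9 KO replicate 3 (adjusted p 0.0267).

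Among condensins, cohesion and chromosome proteins, 5 of 23 were lower (21.7% lower, against 9.78% of all tested genes; median -0.09). Mki67, the gene of the Ki-67 antigen, was at 152, 116 and 151 CPM in LIN9 wt and 99.4, 89.2 and 72.3 CPM in LIN9 KO libraries (log2 fold change -0.68, adjusted p = 0.00236). Top2a, the topoisomerase that untangles chromosomes, was at 470, 374 and 349 CPM in LIN9 wt and 361, 394 and 273 CPM in LIN9 KO libraries (log2 fold change -0.21, adjusted p = 0.359). The Mki67 groups did not overlap, while LIN9 KO replicate 2 held more Top2a than LIN9 wt replicates 2 and 3. Rad21, the cohesin cleaved at anaphase, and H2afx, a histone variant, were also lower (log2 fold changes -0.45 and -0.52). Rad21 was not called without LIN9 wt replicate 2 or LIN9 KO replicate 1 (adjusted p 0.0597 and 0.0588). The count of lower genes was 3 without LIN9 wt replicate 1 and 2 without LIN9 wt replicate 2 or LIN9 KO replicate 1. Of the 13 tested cell cycle genes that the study followed with RT-qPCR primers, a list chosen by the study itself and so no independent sign of direction, 6 were lower and 0 higher (46.2% lower; median -0.38), among them Nusap1 (-0.49), a spindle-binding protein. Prc1, a further gene of that list, held 0 counts in every library.

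DNA replication genes were called at about the rate of all tested genes. Of 60 tested genes of G1/S and replication, 7 were lower and 4 higher (11.7% lower and 6.67% higher, against 9.78% and 11.1% of all tested genes), and the median log2 fold change was 0.00; without LIN9 wt replicate 2, 3 were lower. Rrm2, the cell cycle regulated subunit of ribonucleotide reductase, was at 157, 189 and 152 CPM in LIN9 wt and 105, 112 and 97.4 CPM in LIN9 KO libraries (log2 fold change -0.67, adjusted p = 0.000585), without overlap. Its partner Rrm1 was at 325, 370 and 298 CPM in LIN9 wt and 340, 337 and 368 CPM in LIN9 KO libraries, with overlapping groups (log2 fold change 0.07, adjusted p = 0.719). E2f1, an activator of replication genes, fell from 48.6, 55.3 and 59.5 CPM to 39.7, 37 and 40.9 CPM, and Dut, a dUTPase, from 105, 112 and 119 CPM to 81.8, 80.1 and 85.3 CPM.

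Promoters of the late cell cycle lists share sequence letters that the choice of members did not use. RefSeq windows of GRCm38.p6, 250 bases before to 50 bases after a start site, were searched on both strands for the CHR letters TTTGAA or TTCGAA. Such letters stood in the windows of 17.3% of the 12996 tested genes with a window (19.2% of all 32851 windows). The share was 16 of 20 for kinesins and spindle proteins, 12 of 16 for chromosome proteins, 13 of 20 for mitotic regulators, 15 of 27 for kinetochore genes and 8 of 12 for cytokinesis genes, but 11 of 47 for replication genes. Over the 5 late lists together, 22 of the 61 genes with CHR letters were called lower (median log2 fold change -0.24), and 6 of the 31 without them (median -0.01); no test was made of this difference. Among all tested genes the letters made little difference, with 11.7% lower with them and 10.7% without.

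E2F letters (TTTGGCGC, TTTCCCGC, TTTGCCGC or TTTCGCGC) stood in 20 of 47 windows of replication genes and 6 of 16 of chromosome proteins, against 4.1% of the tested genes. The other 4 late lists held them in at most 2 windows each. None of the 20 replication genes with these letters was called in either direction (0 lower, 0 higher). Of the 27 without E2F letters 6 were lower and 3 higher, and no test was made of this difference. The letters CCAAT, a box often found near CHR elements, stood in 16 of 20 windows of mitotic regulators and in 41.9% of the tested genes. They were not particular to cell cycle lists, since 14 of 14 windows of cholesterol synthesis genes and 14 of 19 of cardiac transcription factors held them. A match describes the sequence and is not a binding site.

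The promoters of 4 lower genes with CHR letters are shown because they hold the letters and their genes were lower. Each runs from 170 bases before to 30 bases after the start site, from RefSeq on GRCm38.p6, in its gene's direction, with the CHR letters in capitals on whichever strand they were found. Ube2c, a ubiquitin-conjugating enzyme of the anaphase-promoting complex (170, 187 and 171 CPM in LIN9 wt and 113, 113 and 128 CPM in LIN9 KO libraries, log2 fold change -0.57, adjusted p = 0.000917), was named after its values were seen.
Fam83d, chr2:158767929-158768128, plus strand: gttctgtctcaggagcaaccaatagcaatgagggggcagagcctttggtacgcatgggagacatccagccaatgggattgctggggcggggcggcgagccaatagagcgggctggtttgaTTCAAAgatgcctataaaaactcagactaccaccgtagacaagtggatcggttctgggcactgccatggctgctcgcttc
Kpna2, chr11:106999496-106999695, minus strand: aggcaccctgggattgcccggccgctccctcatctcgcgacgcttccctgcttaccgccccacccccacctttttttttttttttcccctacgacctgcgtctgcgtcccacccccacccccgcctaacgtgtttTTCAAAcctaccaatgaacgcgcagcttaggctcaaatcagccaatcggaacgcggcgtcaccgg
Ube2c, chr2:164769759-164769958, plus strand: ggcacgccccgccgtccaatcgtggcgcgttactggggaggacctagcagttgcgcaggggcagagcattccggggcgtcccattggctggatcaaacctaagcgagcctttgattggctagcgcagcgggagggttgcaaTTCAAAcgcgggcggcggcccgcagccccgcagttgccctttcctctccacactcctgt
Racgap1, chr15:99651627-99651826, minus strand: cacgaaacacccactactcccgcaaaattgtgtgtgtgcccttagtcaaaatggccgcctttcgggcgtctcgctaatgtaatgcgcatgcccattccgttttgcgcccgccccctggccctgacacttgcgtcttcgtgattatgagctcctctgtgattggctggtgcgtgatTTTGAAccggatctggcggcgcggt

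In Fam83d, Kpna2 and Ube2c the capitals begin 50, 35 and 29 bases before the start, and in Racgap1 they lie just after it. The levels of all 4 genes were lower in each knockout library than in each control.

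Targets of the tumour suppressor p53 moved the other way. Of 31 tested genes, 21 were higher and 3 lower (67.7% higher, against 11.1% of all tested genes), with a median log2 fold change of 0.67. Cdkn1a, the p21 inhibitor of cyclin-dependent kinases, was at 34.8, 38.3 and 35.5 CPM in LIN9 wt and 149, 148 and 164 CPM in LIN9 KO libraries (log2 fold change 2.08, SE 0.10, adjusted p = 1.09e-08). Eda2r, a death-domain receptor, was at 9.06, 9.38 and 7.58 CPM in LIN9 wt and 52.5, 60.4 and 56.4 CPM in LIN9 KO libraries (log2 fold change 2.70, SE 0.13, adjusted p = 7.67e-09). Ccng1, a cyclin that feeds back on p53 and the most abundant gene here, was at 275, 269 and 313 CPM in LIN9 wt and 547, 557 and 477 CPM in LIN9 KO libraries (log2 fold change 0.88, SE 0.12, adjusted p = 8.88e-05). All knockouts exceeded all controls, with narrow spread inside each group. Summed over the list, levels were 1389, 1382 and 1431 CPM in LIN9 wt and 2104, 2174 and 2095 CPM in LIN9 KO libraries. Among CDK inhibitors and D-type cyclins, 3 of 14 were higher and 3 lower (21.4% lower and 21.4% higher, against 9.78% and 11.1% of all tested genes). Cdkn1c, the p57 inhibitor, fell from 404, 479 and 397 CPM to 290, 264 and 301 CPM and Cdkn2d, the p19 inhibitor, from 63.1, 63 and 57.9 CPM to 42.9, 38.2 and 45.1 CPM (log2 fold change -0.54, adjusted p = 0.00159). Another annotated gene covers 30.7% of the exonic length of Cdkn1c. Without LIN9 wt replicate 2 or 3, 1 gene of this list was called higher. Ccnd2, the most abundant, was at 360, 397 and 352 CPM in LIN9 wt and 449, 450 and 405 CPM in LIN9 KO libraries (log2 fold change 0.23, adjusted p = 0.16).

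The integrated stress response list had 9 higher and 2 lower genes of 34 (5.88% lower and 26.5% higher; median 0.23). Gdf15 belongs to it as well as to the p53 list. Ddit3, the CHOP factor, was at 19.7, 19.6 and 23.9 CPM in LIN9 wt and 55.5, 41.3 and 69.3 CPM in LIN9 KO libraries (log2 fold change 1.40, adjusted p = 0.000157). Slc3a2, the heavy chain of amino acid transporters, was at 56.7, 66.2 and 55.1 CPM in LIN9 wt and 118, 94.3 and 114 CPM in LIN9 KO libraries (log2 fold change 0.88, adjusted p = 8.39e-05). In both, LIN9 KO replicate 2 was the lowest of the knockouts and still above the controls. Gars, a glycyl-tRNA synthetase and the most abundant member, was at 187, 225 and 185 CPM in LIN9 wt and 162, 180 and 156 CPM in LIN9 KO libraries (log2 fold change -0.26, adjusted p = 0.117). The C/EBP-ATF letters TTGCATCA stood in 8 of 29 windows of the list and in 0.693% of the tested genes; of these 8 genes 2 were higher, and of the 21 without the letters 7. Of 23 interferon-stimulated genes 3 were higher (13%, against 11.1% of all tested genes), namely Oasl2, Rsad2 and Bst2, and the median of the list was -0.04. Rsad2 was not called without LIN9 wt replicate 3, nor Bst2 without LIN9 wt replicate 1 or 2 (adjusted p 0.0763, 0.104 and 0.0662). Metallothioneins and hypoxia-responsive genes were higher for 8 of 16 (50% higher; median 0.83), or 5 without LIN9 wt replicate 1. P4ha1, a collagen prolyl hydroxylase, rose from 102, 119 and 83.9 CPM to 261, 309 and 365 CPM (log2 fold change 1.62, adjusted p = 6.87e-06). Hmox1, haem oxygenase, rose from 29.9, 27.7 and 28.3 CPM to 97.6, 60.4 and 85.6 CPM (adjusted p = 2.02e-05). Vegfa, the most abundant of the list, was at 254, 230 and 293 CPM in LIN9 wt and 277, 380 and 577 CPM in LIN9 KO libraries; LIN9 KO replicate 3 was the highest, LIN9 KO replicate 1 was within the control range, and the gene did not pass the test (log2 fold change 0.67, adjusted p = 0.105). It did without LIN9 KO replicate 1 (adjusted p 0.00353), in the exact test (0.012) and without robust estimates (0.0371).

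Most nuclear genes of the respiratory chain were lower. The respiratory chain had 59 of 76 tested nuclear subunits lower and 0 higher (median log2 fold change -0.51). Complex I accounted for 27 of 36 and complexes II to V for 32 of 40, shares of 75.0% and 80.0% against 9.78% of all tested genes. Cyc1, the cytochrome c1 of complex III, was at 403, 422 and 448 CPM in LIN9 wt and 199, 217 and 200 CPM in LIN9 KO libraries (log2 fold change -1.05, SE 0.11, adjusted p = 1.02e-05). Ndufb10, a membrane-arm subunit of complex I, was at 118, 129 and 136 CPM in LIN9 wt and 71.8, 71.4 and 73.5 CPM in LIN9 KO libraries (log2 fold change -0.82, SE 0.10, adjusted p = 4.07e-05). Atp5g1, a c subunit of the ATP synthase, was at 158, 162 and 180 CPM in LIN9 wt and 98.2, 87 and 97.1 CPM in LIN9 KO libraries (log2 fold change -0.83, SE 0.10, adjusted p = 5.61e-05). The knockouts were close to each other in all 3 genes and lay below every control. At a higher level, Atp5b, the catalytic beta subunit of the ATP synthase, fell from 3065, 3453 and 3077 CPM to 1970, 2126 and 2098 CPM (log2 fold change -0.63, adjusted p = 0.00322). Cox4i1, Cox6a2 and Ndufa13 held 0 counts in every library; a 0 for genes that heart muscle uses was read as no value.

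The 13 respiratory genes of mitochondrial DNA all had negative log2 fold changes (median -0.40), and 7 were called lower. mt-Nd2, a complex I subunit, was at 2760, 2467 and 3058 CPM in LIN9 wt and 2172, 1573 and 1469 CPM in LIN9 KO libraries (log2 fold change -0.67, adjusted p = 0.00829), and mt-Nd3 at 496, 504 and 629 CPM in LIN9 wt and 392, 292 and 359 CPM in LIN9 KO libraries (log2 fold change -0.64, adjusted p = 0.00327). LIN9 KO replicate 1 was the highest knockout in both and remained below the controls. mt-Co1, the most abundant of the 13 and a catalytic subunit of complex IV, was at 13187, 12253 and 15394 CPM in LIN9 wt and 12156, 11140 and 10877 CPM in LIN9 KO libraries (log2 fold change -0.26, adjusted p = 0.306). The count of lower genes varied with the libraries: it was 2 without LIN9 wt replicate 1, LIN9 wt replicate 3 or LIN9 KO replicate 2, and 3 without LIN9 KO replicate 3. Upper quartile scaling left 4.

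In pyruvate oxidation and the citric acid cycle, 21 of 22 tested genes were lower (95.5% lower; median -0.61), the largest share of any pathway list here; its Sdh genes are also complex II. Idh3a, the NAD-dependent isocitrate dehydrogenase, was at 429, 441 and 450 CPM in LIN9 wt and 229, 255 and 214 CPM in LIN9 KO libraries (log2 fold change -0.92, adjusted p = 3.99e-05). Sdhc, an anchor of succinate dehydrogenase, was at 242, 272 and 285 CPM in LIN9 wt and 132, 149 and 148 CPM in LIN9 KO libraries (log2 fold change -0.90, adjusted p = 4.23e-05). Suclg2, a succinyl-CoA ligase subunit, was at 86.6, 88.4 and 85.8 CPM in LIN9 wt and 47.6, 51 and 52.9 CPM in LIN9 KO libraries (log2 fold change -0.78, adjusted p = 4.80e-05). No knockout library reached a control in these genes. Idh2, the most abundant of the list, fell from 1331, 1460 and 1440 CPM to 766, 861 and 825 CPM (log2 fold change -0.79, adjusted p = 0.000319).

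Fatty acid genes were lower for 20 of 28 (71.4% lower; median -0.45), and for 12 without LIN9 KO replicate 1. Eci1, an enoyl-CoA isomerase, was at 108, 95.3 and 135 CPM in LIN9 wt and 46.1, 41 and 51.5 CPM in LIN9 KO libraries (log2 fold change -1.29, adjusted p = 1.41e-05). Acaa2, the thiolase of beta-oxidation, was at 228, 224 and 256 CPM in LIN9 wt and 106, 119 and 114 CPM in LIN9 KO libraries (log2 fold change -1.06, adjusted p = 7.97e-06). Acadm, the medium-chain dehydrogenase, fell by 0.89 on the log2 scale. No knockout reached a control in any of the 3. Of 25 glycolysis genes 5 were lower and 1 higher (20% lower and 4% higher, against 9.78% and 11.1% of all tested genes; median -0.03). Pkm, the most abundant, was at 1309, 1440 and 1339 CPM in LIN9 wt and 1254, 1444 and 1560 CPM in LIN9 KO libraries, with overlapping groups. Ldhb, the lactate dehydrogenase typical of heart, fell from 314, 344 and 376 CPM to 218, 210 and 210 CPM (log2 fold change -0.70, adjusted p = 0.000317). Pgam2, the muscle phosphoglycerate mutase, fell from 188, 219 and 215 CPM to 128, 160 and 131 CPM and Slc16a1, a lactate transporter, from 216, 225 and 225 CPM to 140, 154 and 178 CPM.

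Regulators of mitochondrial biogenesis were lower for 11 of 20 and higher for 2 (55% lower and 10% higher; median -0.39); without LIN9 wt replicate 1, 6 were lower. Esrrg, an oestrogen-related nuclear receptor, was at 103, 92.1 and 95.7 CPM in LIN9 wt and 59.1, 56.4 and 47 CPM in LIN9 KO libraries (log2 fold change -0.84, adjusted p = 7.67e-05). Esrra, its relative, was at 121, 117 and 129 CPM in LIN9 wt and 76.4, 85.1 and 75.7 CPM in LIN9 KO libraries (log2 fold change -0.63, adjusted p = 0.000355). Ppargc1a, their coactivator PGC-1alpha, was at 129, 114 and 135 CPM in LIN9 wt and 64.2, 86.6 and 68.4 CPM in LIN9 KO libraries (log2 fold change -0.78, adjusted p = 0.000313). None of the 3 had overlapping groups. The ERR letters TCAAGGTCA stood in 2 of 32 windows of complexes II to V, 0 of 32 of complex I and 0.392% of the tested genes.

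One such window is shown for its ERR letters in capitals, here on the opposite strand, 52 bases before the start of Atp5g3, which encodes a c subunit of the ATP synthase and was named after its values were seen; the window has the extent and source given for the CHR promoters. Atp5g3 was at 683, 773 and 801 CPM in LIN9 wt and 405, 445 and 437 CPM in LIN9 KO libraries, below every control in each knockout (log2 fold change -0.81, adjusted p = 0.00018).
Atp5g3, chr2:73911297-73911496, minus strand: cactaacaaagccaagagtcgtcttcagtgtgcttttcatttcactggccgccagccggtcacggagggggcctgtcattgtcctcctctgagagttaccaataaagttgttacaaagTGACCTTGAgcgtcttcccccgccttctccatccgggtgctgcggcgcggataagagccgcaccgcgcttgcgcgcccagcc

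Mitochondrial solute carriers were lower for 14 of 31 and higher for 2 (45.2% lower and 6.45% higher; median -0.29). Slc25a4, the heart ADP/ATP carrier, fell from 1441, 1547 and 1718 CPM to 1012, 1019 and 1122 CPM (log2 fold change -0.58, adjusted p = 0.00431). Slc25a42, a coenzyme A carrier, fell from 20.4, 20.8 and 20.6 CPM to 9.54, 11.6 and 10.1 CPM (log2 fold change -0.98, adjusted p = 0.00015). Slc25a1, the citrate carrier, was opposite, at 22, 24.2 and 21.8 CPM in LIN9 wt and 36.9, 31.6 and 41.5 CPM in LIN9 KO libraries (log2 fold change 0.69, adjusted p = 0.00104). The count of lower carriers was 9, 8 and 7 without LIN9 wt replicate 1, LIN9 wt replicate 3 and LIN9 KO replicate 1. In the creatine list 6 of 10 were lower and 2 higher (60% lower and 20% higher): besides Ckm, Ak1, an adenylate kinase, fell from 205, 214 and 231 CPM to 152, 149 and 155 CPM, while Ckb, the brain-type creatine kinase, rose from 107, 118 and 103 CPM to 184, 197 and 194 CPM (log2 fold change 0.81, adjusted p = 5.63e-05). Cholesterol synthesis genes were mixed, with 7 of 22 lower and 2 higher (31.8% lower and 9.09% higher). Their lower calls numbered 2 without LIN9 wt replicate 1 or LIN9 KO replicate 1, 0 without LIN9 wt replicate 2 and 3 without LIN9 wt replicate 3.

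Sarcomere and Z-disc genes were lower for 21 of 37 and higher for 2 (56.8% lower and 5.41% higher; median -0.67). Their summed level was 37580, 39265 and 38609 CPM in LIN9 wt and 22446, 28123 and 21997 CPM in LIN9 KO libraries. Myh7, the beta myosin heavy chain, was at 5097, 5566 and 4246 CPM in LIN9 wt and 2200, 3381 and 1583 CPM in LIN9 KO libraries (log2 fold change -1.06, adjusted p = 0.00958). Myl2, the ventricular regulatory light chain, was at 4420, 4266 and 5142 CPM in LIN9 wt and 1750, 1261 and 1963 CPM in LIN9 KO libraries (log2 fold change -1.48, adjusted p = 3.06e-05). Tnnt2, cardiac troponin T, was at 4327, 4144 and 4743 CPM in LIN9 wt and 2604, 2851 and 2560 CPM in LIN9 KO libraries (log2 fold change -0.72, adjusted p = 0.00169). These genes, with Myl3 and mt-Nd1, gave the 5 largest decreases in CPM among called genes without overlap between groups. mt-Nd1 was not called without LIN9 wt replicate 1, LIN9 wt replicate 3 or LIN9 KO replicate 2 (adjusted p 0.0671, 0.123 and 0.0661). LIN9 KO replicate 2 had the most Myh7 and the least Myl2 among the knockouts. Tcap, a titin cap protein of the Z-disc, fell from 84.3, 82.8 and 97.7 CPM to 38, 37.1 and 42.6 CPM (log2 fold change -1.17, adjusted p = 4.50e-06). Cardiac actin Actc1, skeletal actin Acta1 and troponin C Tnnc1 held 0 counts in all 6 libraries, as did Myom1, Xirp1 and Ankrd23, so sums over this list leave out main components of the thin filament.

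The ventricular identity list was lower for 8 of 9 genes (88.9% lower; median -0.95), with a summed level of 13874, 14119 and 14331 CPM in LIN9 wt and 6267, 6683 and 6063 CPM in LIN9 KO libraries. Irx4, a homeobox factor of the ventricle, was at 113, 96.7 and 116 CPM in LIN9 wt and 39.8, 35.7 and 37.6 CPM in LIN9 KO libraries (log2 fold change -1.53, SE 0.11, adjusted p = 5.15e-07). Hey2, a Notch effector of compact myocardium, was at 154, 166 and 156 CPM in LIN9 wt and 86.3, 87.3 and 97.5 CPM in LIN9 KO libraries (log2 fold change -0.81, SE 0.10, adjusted p = 4.97e-05). All 3 knockouts were alike and well below the controls. Atrial genes had 3 higher and 1 lower of 14 (7.14% lower and 21.4% higher, median 0.51), and 12 had positive log2 fold changes. Their summed level was 3384.7, 4390.3 and 3368.5 CPM in LIN9 wt and 4525.3, 5801 and 5038.3 CPM in LIN9 KO libraries. This list shares Nppa, Sln and Bmp10 with the trabecular list. The rise of Nppa, given below with the trabecular markers, is part of the atrial sum, which was not taken without it. Their higher calls numbered 5 without LIN9 wt replicate 2, and 5 with DESeq2 or a mean count above 10. They numbered 6 with the exact test or without robust estimates. Myl4, the atrial light chain and most abundant of that list, was at 1995, 2344 and 2146 CPM in LIN9 wt and 2104, 2246 and 2215 CPM in LIN9 KO libraries, with overlapping groups (log2 fold change 0.02, adjusted p = 0.944), in contrast to the ventricular light chains. Dkk3, a secreted Wnt modulator, rose from 105, 133 and 85.3 CPM to 175, 265 and 219 CPM (log2 fold change 1.03, adjusted p = 0.00251) and Angpt1, a vascular ligand, fell from 53.6, 49 and 47.4 CPM to 25.2, 30.2 and 17.6 CPM (log2 fold change -1.04, adjusted p = 0.000413).

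Trabecular markers were split: 7 of 11 were lower (63.6% lower and 18.2% higher; median -0.80), while the natriuretic peptides rose. Nppb was at 144, 137 and 164 CPM in LIN9 wt and 403, 433 and 542 CPM in LIN9 KO libraries (log2 fold change 1.63, adjusted p = 1.37e-06). Nppa, the most abundant of the list, was at 471, 563 and 376 CPM in LIN9 wt and 1226, 1575 and 1437 CPM in LIN9 KO libraries (log2 fold change 1.59, adjusted p = 7.97e-06). Both were higher in every knockout, and 61.5% of the exonic length of Nppa lies under another annotated gene. Irx3, a factor of the conduction system, fell from 26.3, 27.2 and 27.1 CPM to 13.7, 9.65 and 10.7 CPM (log2 fold change -1.25, adjusted p = 2.93e-05). Compact myocardium markers had 3 lower and 2 higher of 12 (25% lower and 16.7% higher, against 9.78% and 11.1% of all tested genes, median 0.19). Of the 12, 8 had positive log2 fold changes, up to 0.94, though Mycn and Prdm16 were lower. Mycn, a MYC family factor of dividing compact layer cells, fell from 57.7, 62.3 and 60.7 CPM to 29.7, 25.7 and 32.3 CPM (log2 fold change -1.04, adjusted p = 1.41e-05). Prdm16, a chromatin regulator of compact fate, fell from 89.4, 79.7 and 94 CPM to 32.9, 31.4 and 31.1 CPM (log2 fold change -1.47, adjusted p = 5.26e-07). Tbx20, the most abundant, was at 514, 527 and 470 CPM in LIN9 wt and 591, 593 and 519 CPM in LIN9 KO libraries, with overlapping groups.

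Cardiac transcription factors were lower for 15 of 31 and higher for 5 (48.4% lower and 16.1% higher; median -0.41). Next to Irx4 and Prdm16, Myocd, the coactivator myocardin, was at 105, 92.3 and 103 CPM in LIN9 wt and 50.6, 48.1 and 38 CPM in LIN9 KO libraries (log2 fold change -1.14, adjusted p = 1.14e-05), without overlap. Sodium and potassium channels and connexins were lower for 13 of 26 and higher for 5 (50% lower and 19.2% higher). Gja1, connexin 43 and the most abundant of them, was at 573, 545 and 484 CPM in LIN9 wt and 271, 302 and 254 CPM in LIN9 KO libraries (log2 fold change -0.95, adjusted p = 5.05e-05). Kcnq1, a repolarising potassium channel, was at 25.3, 20.4 and 26.6 CPM in LIN9 wt and 11.4, 11 and 9.98 CPM in LIN9 KO libraries (log2 fold change -1.16, adjusted p = 5.67e-05). Each knockout was below each control. Calcium handling genes were lower for 6 of 25 and higher for 1 (24% lower and 4% higher, against 9.78% and 11.1% of all tested genes; median -0.10). Jph2, a junctophilin that ties the sarcoplasmic reticulum to the cell membrane, fell from 411, 449 and 438 CPM to 211, 261 and 215 CPM (log2 fold change -0.92, adjusted p = 6.37e-05). Cacna1c, the L-type calcium channel, fell from 346, 254 and 315 CPM to 188, 191 and 160 CPM (log2 fold change -0.77, adjusted p = 0.000557). Atp2a2, the SERCA2 pump, was at 1346, 1657 and 1183 CPM in LIN9 wt and 649, 1180 and 571 CPM in LIN9 KO libraries, with LIN9 KO replicate 2 close to LIN9 wt replicate 3, and did not pass the test (log2 fold change -0.80, adjusted p = 0.0772). It did without that library, in the exact test and without robust estimates (adjusted p 6.33e-05, 0.00471 and 0.0264). Pln, the inhibitor of that pump, held 0 counts.

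**Figure D3:**
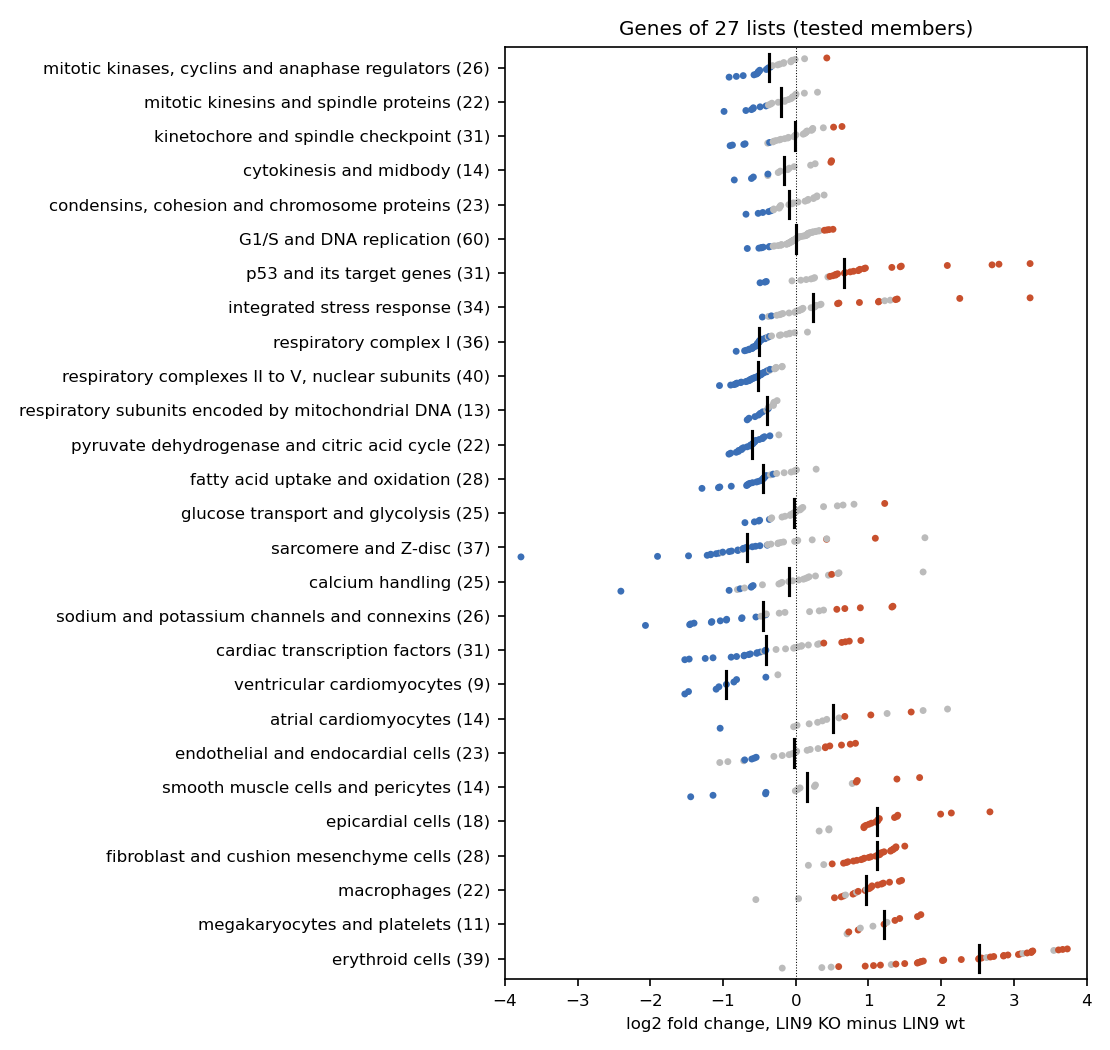
Log2 fold change (LIN9 KO minus LIN9 wt) of each tested member of 27 lists, with the number of tested members in brackets. Orange points are called higher, blue points called lower and grey points not called at an adjusted p of 0.05; the black bar is the list's median, from -0.95 for ventricular cardiomyocytes to 2.52 for erythroid cells.

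Markers of other cells of the heart were mostly higher. Fibroblast and cushion mesenchyme genes were higher for 26 of 28 (92.9%; median 1.11), and their summed level was 6663, 6982 and 5930 CPM in LIN9 wt and 11401, 12674 and 12190 CPM in LIN9 KO libraries. Tcf21, a factor of cardiac fibroblasts, was at 32, 41.6 and 36.6 CPM in LIN9 wt and 92.1, 90.8 and 90.7 CPM in LIN9 KO libraries (log2 fold change 1.31, SE 0.11, adjusted p = 2.04e-06). Lox, the collagen crosslinking oxidase, was at 54.8, 55.4 and 48.2 CPM in LIN9 wt and 128, 135 and 149 CPM in LIN9 KO libraries (log2 fold change 1.38, SE 0.11, adjusted p = 9.24e-07). The knockouts were tightly grouped above the controls. Vim, the intermediate filament vimentin and most abundant of the list, rose from 1408, 1597 and 1418 CPM to 1892, 2091 and 2275 CPM (log2 fold change 0.50, adjusted p = 0.0138). Mfap4, a matrix protein, rose from 67.3, 69 and 54.6 CPM to 149, 143 and 151 CPM. Vim was not called without LIN9 wt replicate 1 or 3 (adjusted p 0.0951 and 0.0608), and Scx, a tendon and valve factor, held 0 counts. Epicardial genes were higher for 15 of 18 (83.3% higher; median 1.11), with a sum of 469, 442 and 432 CPM in LIN9 wt and 866, 845 and 989 CPM in LIN9 KO libraries. Krt19, a keratin of the epicardium, was at 45.3, 48.8 and 40.6 CPM in LIN9 wt and 102, 114 and 129 CPM in LIN9 KO libraries (log2 fold change 1.36, adjusted p = 2.07e-06). Aldh1a1, a retinoic acid synthase, was at 1.96, 3.06 and 3.95 CPM in LIN9 wt and 13.2, 11.4 and 14.9 CPM in LIN9 KO libraries (log2 fold change 2.14, adjusted p = 1.31e-05). Upk3b, the uroplakin with the highest level, was at 86.4, 77.2 and 76.4 CPM in LIN9 wt and 158, 140 and 184 CPM in LIN9 KO libraries (log2 fold change 1.00, adjusted p = 2.65e-05). For all 3 each knockout was above each control. The part of these cell types in the lower muscle and mitochondrial genes was not tested.

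Macrophage genes were higher for 17 of 22 (77.3% higher; median 0.96) and for 11 without LIN9 wt replicate 1. Their sum was 192, 188 and 205 CPM in LIN9 wt and 346, 351 and 383 CPM in LIN9 KO libraries. C1qa, a complement subunit made by tissue macrophages, was at 6.08, 7.48 and 8.83 CPM in LIN9 wt and 17.7, 19.2 and 17.9 CPM in LIN9 KO libraries (log2 fold change 1.29, adjusted p = 5.52e-05). Adgre1, the F4/80 antigen, was at 7.21, 7.06 and 7.17 CPM in LIN9 wt and 15.7, 15.7 and 18 CPM in LIN9 KO libraries (log2 fold change 1.20, adjusted p = 5.28e-05). Ctss, the protease cathepsin S, was at 10.9, 8.22 and 11.2 CPM in LIN9 wt and 24.3, 23.2 and 34 CPM in LIN9 KO libraries (log2 fold change 1.42, adjusted p = 5.40e-05). The genotypes did not overlap. Lyz2, lysozyme, was the most abundant (40.7, 37.5 and 43.9 against 84.2, 56 and 96.4 CPM), and Itgam held 0 counts. Megakaryocyte and platelet genes were higher for 7 of 11 (63.6% higher; median 1.21), with a sum of 50.8, 54.4 and 43.3 CPM in LIN9 wt and 108, 152 and 116 CPM in LIN9 KO libraries. Itga2b, the platelet integrin, rose from 9.37, 8.33 and 6.34 CPM to 30, 29.8 and 17.1 CPM (log2 fold change 1.67, adjusted p = 0.000324). Vwf, von Willebrand factor, which endothelium also makes, was the most abundant at 25, 27.8 and 21.1 CPM in LIN9 wt and 45.6, 88.6 and 64.8 CPM in LIN9 KO libraries (log2 fold change 1.43, adjusted p = 0.0037), though not called without LIN9 KO replicate 3 (adjusted p 0.0578). F2rl2 held 0 counts. Whether these cells have a part in other differences was not tested.

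Erythroid genes showed the largest differences of any list, with 32 of 39 higher (82.1% higher; median 2.52) and a summed level of 11678, 8567 and 9898 CPM in LIN9 wt and 93138, 48412 and 36001 CPM in LIN9 KO libraries. Hbb-y, the embryonic beta-like globin and the most abundant gene of the list, was at 3210, 2438 and 1806 CPM in LIN9 wt and 37294, 18696 and 14359 CPM in LIN9 KO libraries (log2 fold change 3.24, SE 0.40, adjusted p = 0.000917). LIN9 KO replicate 1 was the highest library, and the lowest knockout was still above the highest control. Hemgn, the erythroid nuclear protein hemogen, was at 1.03, 0.422 and 0.519 CPM in LIN9 wt and 6.51, 6.71 and 5.04 CPM in LIN9 KO libraries (log2 fold change 3.18, adjusted p = 8.15e-06). Gata1, the zinc finger regulator of erythroid and megakaryocytic cells, was at 1.03, 0.949 and 1.04 CPM in LIN9 wt and 5.86, 6.5 and 5.14 CPM in LIN9 KO libraries (log2 fold change 2.52, adjusted p = 1.02e-05), with no overlap in either. Hba-a1, Hba-a2, Hba-x and Hbb-bt gave the other largest increases in CPM among called genes without overlap between groups. Hbb-bt was not called in 6 settings, such as with no filter on low counts or without LIN9 KO replicate 3 (adjusted p 0.114 and 0.0701). Hba-a1 and Hba-a2 are near-identical copies, so how reads were divided between them is uncertain. Alas2, the haem synthesis enzyme of red cells, was listed at 0. The part of blood in the other differences was not tested.

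Endothelial and smooth muscle lists had no single direction. Endothelial genes were higher for 6 and lower for 4 of 23 (17.4% lower and 26.1% higher, against 9.78% and 11.1% of all tested genes; median -0.02), with a sum of 1906, 2135 and 1773 CPM in LIN9 wt and 2001, 2481 and 2030 CPM in LIN9 KO libraries; 3 were higher without LIN9 wt replicate 1 or 3. Eng, endoglin, rose from 218, 262 and 214 CPM to 309, 340 and 309 CPM and Emcn, an endocardial sialomucin, from 65.8, 68 and 72.8 CPM to 110, 104 and 133 CPM (log2 fold change 0.75, adjusted p = 0.000223), while Sox18, a factor of vessel formation, fell from 25.5, 32.7 and 34 CPM to 17.6, 19.8 and 19.2 CPM (log2 fold change -0.70, adjusted p = 0.00155). Eng was not called without LIN9 wt replicate 1 or 3 (adjusted p 0.0639 and 0.0516), and Ecscr held 0 counts. Smooth muscle genes were higher for 4 and lower for 4 of 14 (28.6% lower and 28.6% higher). Their sum was 2849, 3092 and 2678 CPM in LIN9 wt and 3201, 3517 and 3452 CPM in LIN9 KO libraries. This sum was higher in every knockout than in every control, but it includes the rise of Tagln given below and was not taken without it. The lower members reached a log2 fold change of -1.445. Acta2, smooth muscle actin and the most abundant, was at 935, 1053 and 911 CPM in LIN9 wt and 953, 1094 and 972 CPM in LIN9 KO libraries, with overlapping groups. Mylk, the myosin light chain kinase, was at 23.1, 22.9 and 21.9 CPM in LIN9 wt and 39, 40.3 and 41.5 CPM in LIN9 KO libraries (log2 fold change 0.83, adjusted p = 6.90e-05). Tagln, transgelin, was at 285, 318 and 251 CPM in LIN9 wt and 706, 609 and 924 CPM in LIN9 KO libraries (log2 fold change 1.39, adjusted p = 2.28e-05); both were higher in every knockout, and 67.9% of the exonic length of Tagln is shared with another gene.

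Markers of tissue outside the heart were counted at low levels, and those at 0 were again read as no value. Lung epithelial genes summed to at most 3.04 CPM, with 0 of 5 tested genes higher, and Nkx2-1, Shh and Sox2 held 0 counts. Hepatocyte genes summed to 4.64, 6.54 and 7.38 CPM in LIN9 wt and 15.6, 20.8 and 31 CPM in LIN9 KO libraries, led by Rbp4, the retinol carrier, at 0, 1.05 and 0.623 CPM in LIN9 wt and 8.24, 8.39 and 8.54 CPM in LIN9 KO libraries (log2 fold change 3.88, adjusted p = 4.93e-05); of 10 tested genes 4 were higher and 2 lower (20% lower and 40% higher), and Serpina1a and Fgb held 0 counts. Neural genes were higher for 1 of 12 (8.33% higher), the receptor gene Ngfr (3.91, 3.48 and 2.81 against 9.22, 11.3 and 11.2 CPM, log2 fold change 1.64, adjusted p = 3.99e-05). None of 4 Y-linked genes was called (0 higher, 0 lower), though without LIN9 wt replicate 1 the RNA helicase gene Ddx3y was higher (log2 fold change 0.68, adjusted p 0.0363). A list of YAP target genes and Hippo pathway genes was higher for 10 of 27 and lower for 1 (3.7% lower and 37% higher, median 0.26). Besides targets it holds Sav1, Lats1, Stk3, Stk4, Nf2, Tead1, Wwtr1 and Yap1, so these counts are not over targets alone. Without LIN9 wt replicate 3, 6 were higher. Axl, a receptor tyrosine kinase, was at 105, 104 and 85.2 CPM in LIN9 wt and 151, 191 and 179 CPM in LIN9 KO libraries (log2 fold change 0.82, adjusted p = 0.000186). Vgll3, a TEAD cofactor, was at 3.5, 3.27 and 3.95 CPM in LIN9 wt and 8.78, 7.13 and 7.2 CPM in LIN9 KO libraries (log2 fold change 1.10, adjusted p = 0.000951), both with every knockout above every control. Fstl1, a secreted glycoprotein that mesenchyme also makes, was the most abundant (1106, 1199 and 934 against 1555, 1721 and 1625 CPM).

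**Figure D4:**
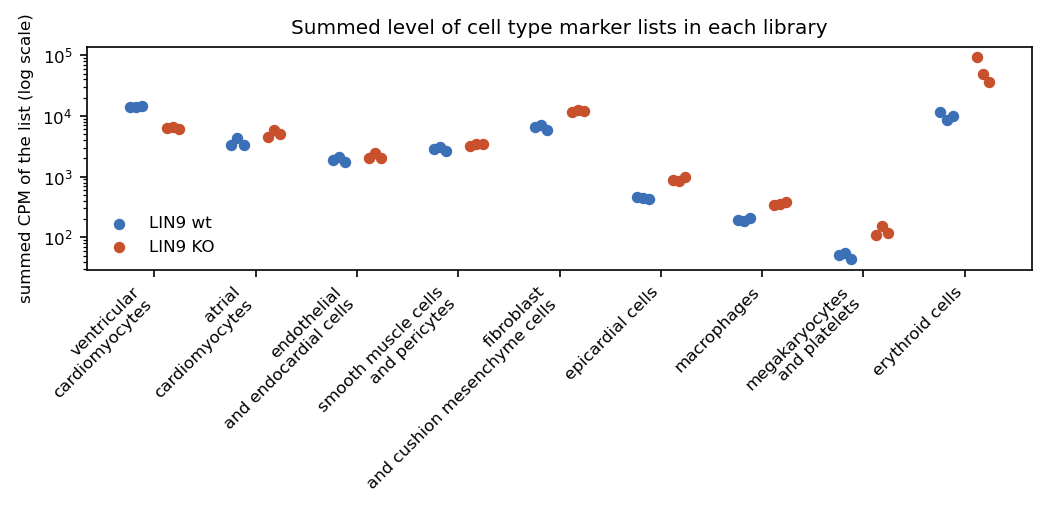
Summed CPM (log scale) of 9 cell type marker lists in each library, LIN9 wt in blue and LIN9 KO in orange. Ventricular genes sum to 13874, 14119 and 14331 CPM in LIN9 wt and 6267, 6683 and 6063 CPM in LIN9 KO libraries. The mesenchyme, epicardial, macrophage, platelet and erythroid sums are among those higher in every knockout than in every control.

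The same genotypes were compared in the second experiment, in ventricles with intact Sav1 (3 libraries each, all different by label), where totals lay between 2770741 and 2999877 counts. There, 4103 of 17675 tested genes (23.2%) passed edgeR's test at an adjusted p under 0.05. Of the 4078 genes called in the first experiment and tested in both, 3983 had the same sign in the second, and 2621 were called in both. That is 64.3% of the first and 63.9% of the second set of calls, and 0 were called with opposite signs. Across the 17656 genes tested in both, the log2 fold changes had a Pearson r of 0.686, given as a description since genes are not independent. The difference between the 2 experiments in the Lin9 effect was tested directly as a genotype by experiment interaction. edgeR called 0 of 19021 genes (0%) after Benjamini-Hochberg adjustment, and 968 had an unadjusted p under 0.05; no other tool was run on it. A p that misses the threshold does not show that the effects are equal.

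Side by side, Ky changed by -3.78 (SE 0.24) in the first and -2.84 (SE 0.36) in the second experiment, Cdkn1a by 2.08 and 2.16 (SE 0.12), and Cyc1 by -1.05 and -1.15 (SE 0.11), all on the log2 scale. The sign was the same in each pair, and the gap was widest for Ky (adjusted p of the edgeR interaction = 0.98). Lin9 was at -0.31 (SE 0.14) in the first and -0.80 (SE 0.19) in the second experiment (edgeR interaction, Benjamini-Hochberg adjusted p = 0.972), and only the second passed its own test. mt-Nd3 was at -0.64 and -1.31 (SE 0.17) (adjusted p of the edgeR interaction = 0.972). As lists, mitotic regulators were lower for 15 and 12 of 26 genes in the first and second experiment, p53 targets higher for 21 and 21 of 31, citric acid cycle genes lower for 21 and 22 of 22, and mesenchyme genes higher for 26 and 25 of 28. For other lists the counts lay further apart. Among these, genes of mitochondrial DNA were lower for 7 and 13 of 13, and regulators of mitochondrial biogenesis for 11 and 6 of 20. Sodium and potassium channels and connexins were lower for 13 and 8 of 26, and cardiac transcription factors for 15 and 10 of 31. Metallothioneins and hypoxia-responsive genes were higher for 8 and 14 of 16, glycolysis genes for 1 and 8 of 25, calcium handling genes for 1 and 6 of 25 and platelet genes for 7 and 4 of 11. These pairs of counts were not tested. The shares of 9.78% lower and 11.1% higher hold for the first experiment only. For the second, only the 23.2% of tested genes called in either direction is given here.

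**Figure D5:**
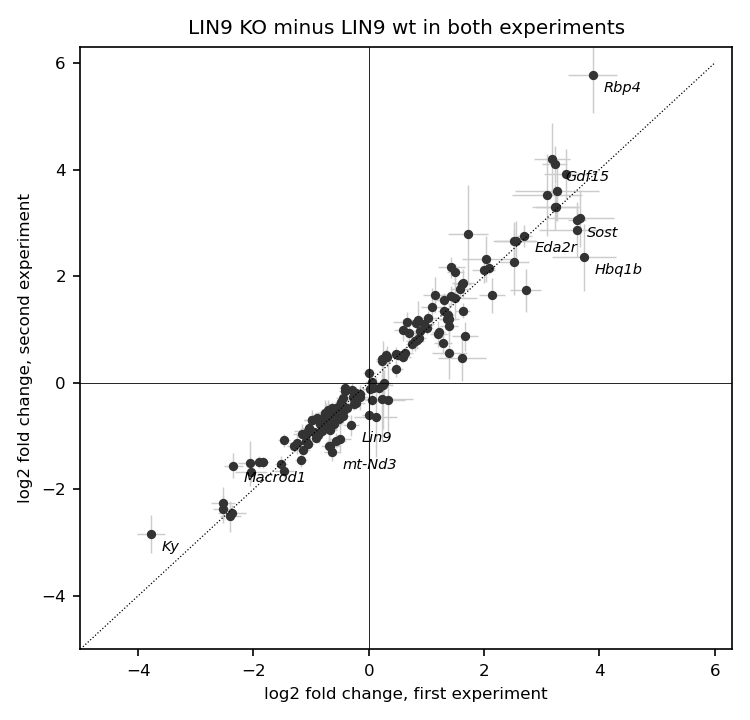
Log2 fold change (LIN9 KO minus LIN9 wt, intact Sav1) of 171 named genes in the first and the second experiment, with SE as grey bars and the line of equal values dotted. Of these genes, 162 have the same sign in both, and Ky and Rbp4 mark the ends of the range.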

How the data were processed

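PolyA-selected RNA of mouse heart ventricles was sequenced in 18 libraries, of which the 6 of the first experiment are compared here. Per the labels and the publication, the authors mapped reads with TopHat2 2.1.0 and Bowtie2 to mm10, normalized libraries to the one with fewest mappable reads (totals are near equal within each experiment but differ between the experiments), and made the raw counts per Ensembl gene with summarizeOverlaps. The count tables were used as deposited, except that 4 duplicate identifiers were dropped from each. Tables of the authors' own comparisons hold fold changes and p-values and were not used, and 4 ChIP-seq samples were not analysed.

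Genes averaging more than 1 count per library here were tested in R 4.3.3 with edgeR 4.0.16 (TMM scaling, robust quasi-likelihood F-test, genotype as the only factor), with Benjamini-Hochberg adjustment over all tested genes and a threshold of 0.05. After fitting, 4 residual degrees of freedom remained, and the common biological coefficient of variation was 0.115. The second experiment was fitted with all its 12 libraries, and a joint model of both experiments gave the interaction. Alternatives were DESeq2 1.42.0, no TMM, upper quartile scaling, TMM without erythroid genes, other filters, the edgeR exact test, no robust estimates, a replicate block and each library left out in turn. CPM came from the TMM-scaled library sizes, and log2 CPM for the principal components used a prior count of 2.

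Gene names and overlaps came from GENCODE M21, to which 48349 of 48709 counted genes were matched. Genes are named by rule: Lin9 and Sav1; among called genes with a mean of at least 5 CPM and no overlap between groups, the 10 largest log2 increases and decreases and the 5 largest CPM increases and decreases; and in each list the 3 tested members with the smallest p and the member with the highest level. Some genes that the rule names are not reported here. Ube2c, Atp5g3 and genes that hold 0 counts were named after their values were seen. The members and lists were chosen with earlier results of these data known.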

Additional observations from a re-analysis of the deposited data

How the results depend on the processing

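No call changed sign in any of the 15 alternatives. The number of genes called was between 3478 (DESeq2) and 4481 (no filter on low counts) across the other scalings, filters and tests, and without TMM 48.5% of the calls were higher against 53.2% with it. With each library left out in turn, the calls ranged from 2722 to 4223, the higher ones from 1473 to 2305 and the lower ones from 1249 to 1918. Macrophage genes called higher ranged from 11 to 16 over the same 6 fits. TMM without the erythroid genes kept 4080 of the 4131 calls.

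Lin9 had a negative log2 fold change in every alternative, from -0.42 to -0.19. Of 2602 pairs of a named gene and an alternative, 2532 stayed on the same side of the threshold, 52 lost the call and 18 gained it; 148 of 174 genes were the same in all. Of 675 list counts under the alternatives, 634 stayed within 1.5 times, while 15 of the 45 lists moved further at least once. Each list was followed only in the direction in which more of its members were called. The cause of these moves and of those with a library left out was not tested. In the second experiment the calls numbered 3420 with only 6 libraries and 4370 with a replicate block. The interaction called 0 genes in all 8 of its alternatives, none of which fitted a replicate block. Pairing by replicate number was not checked in the second experiment.

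The libraries share replicate numbers only. Deviations from the group mean correlated at 0.0873, 0.0267 and 0.0824 between LIN9 wt and LIN9 KO libraries of the same number. Between libraries of different number the correlations lay from -0.125 to 0.0516. Whether libraries of the same number are paired cannot be told from these values, and the main fit used no replicate block. A replicate block gave 5001 calls (2629 higher, 2372 lower); under it 11 genes of mitochondrial DNA were lower and 9 atrial genes higher, Atp2a2, Gars and Rbbp4 passed as lower and Vegfa and Tfdp2 as higher (adjusted p 1.33e-05, 0.0321, 0.0235, 0.0272 and 0.0215), and Hbb-bt did not pass (0.132).

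At this depth 1 count is 0.103 to 0.108 CPM, so differences in genes of a few CPM rest on few reads.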
